A study of Homo sapiens with 12 samples.

Results

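Vitamin D, parathyroid hormone and fibroblast growth factor 23 (FGF23) set the calcium and phosphate handling of the proximal tubule. This axis was followed through 9 genes, CYP2R1, CYP27B1, CYP24A1, VDR, PTH1R, KL, FGFR1, STC1 and STC2. They were taken by name, as every probe other than a control spot that carries one of these gene names on the array. The rule gave 12 probes on 21 spots of each array, out of 25992 gene names, 34127 probes and 43118 spots. For 6 of the 9 genes, some probe was marked well above background in both replicates of 1 group or more, and these entered a fit of 15717 genes. CYP27B1, CYP24A1 and STC1 had no such probe and are described array by array.

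HK-2 and RPTEC/TERT1 cells are immortalized human proximal tubular cell (HPTC) lines, the first made with papillomavirus genes and the second with telomerase. After culture at normal glucose and 24 h without serum and supplements, the cells received IL-1β (10 ng/mL), a pro-inflammatory cytokine, or Empa (500 nM), an inhibitor of the glucose transporter SGLT2, or were left without a ligand as control. Total RNA was taken after 24 h and put on 12 Agilent arrays with one dye, so that each treatment of each line had 2 arrays. There were 4 slides, each with control, IL-1β and Empa of one line and replicate number (HK2 1, HK2 2, RPTEC 1 and RPTEC 2), always in the same 3 positions, so that position and treatment cannot be told apart. The study's methods call the arrays of a group biological replicates.

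The line labels and the expression profiles went different ways. The titles name HK2 or RPTEC, while another label gives HK-2 as the RNA source of all 12 arrays. Over 15324 probes, the control arrays of HK2 1 and RPTEC 2, and of HK2 2 and RPTEC 1, correlated with r of 0.984 and 0.973, but those that share a line label with r of 0.88 (HK2) and 0.875 (RPTEC). Values are therefore given per slide under the label each slide carries. The share of probes well above background ran from 53.5% to 63.54% per array, and the 75th percentile of an array's signals lay between 297.7 and 765.4 signal units. IL-1β arrays had 12.8-fold to 1190-fold more CXCL8, the gene of interleukin 8, than the control array on the 3 slides where both were above background, and at least 935-fold more on RPTEC 2. ICAM1, an adhesion molecule, was 1.44-fold to 13.9-fold higher on the 4 slides, and TNFAIP3, an NF-κB inhibitor, 5.23-fold to 69.8-fold higher on the 3 slides where its spot was usable.

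Markers of the labelled cell type were partly present. Of 12 proximal tubule markers, 8, 6, 5 and 7 were well above background on the control arrays of HK2 1, HK2 2, RPTEC 1 and RPTEC 2. CUBN, SLC5A1, SLC22A6 and HNF4A were above background on none of the 4 control arrays. Of 6 thick limb and distal tubule markers 3, 3, 2 and 3 were above background, with a signal of 8482 and 13330 for the salt transporter gene SLC12A1 on HK2 1 and RPTEC 2 and of 1, the floor, on the other two. None of 4 collecting duct markers was above background on any array. Among markers of cells from outside the tubule, 2 of 4 for podocytes, at most 1 of 4 for fibroblasts, 1 of 3 for endothelium and 2 of 3 for leukocytes were above background on each control array.

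Vitamin D is hydroxylated first by 25-hydroxylases such as CYP2R1 and then, in the proximal tubule, by the 1α-hydroxylase CYP27B1. The product binds the nuclear receptor VDR, and CYP24A1, a 24-hydroxylase and a classical VDR target, degrades it. Parathyroid hormone acts through PTH1R, and FGF23 through FGFR1 with its co-receptor klotho (KL). Both hormones lower phosphate reuptake by the tubule, and they act in opposite ways on vitamin D activation. STC1 and STC2 encode stanniocalcins, secreted glycoproteins linked to calcium and phosphate transport.

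Each gene was read by probes of 60 bases, whose positions the array design gives on hg19. The probe of CYP2R1 lies at chr11:14899632-14899691 on the minus strand and that of CYP27B1 at chr12:58156576-58156635 on the minus strand. CYP24A1 had 2 probes on the minus strand, at chr20:52770946-52771005 and chr20:52773929-52773988. VDR was read at chr12:48235502-48235561 on the minus strand, by 10 spots of 1 probe, whose SD was between 0.07 and 0.25 on the log2 scale of an array. KL was read at chr13:33639483-33639542 on the plus strand, and STC2 at chr5:172741987-172742046 on the minus strand. The PTH1R probe covers chr3:46944115-46944255 on the plus strand, 141 bases of genome for 60 bases of probe, so its target is spliced RNA. FGFR1 had 3 probes and STC1 had 1. The 2 sequences printed here belong to the probe with the largest measured IL-1β difference of the 9 genes and to the second CYP24A1 probe, read beside the first.
PTH1R: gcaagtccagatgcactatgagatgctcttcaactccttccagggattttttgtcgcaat
CYP24A1: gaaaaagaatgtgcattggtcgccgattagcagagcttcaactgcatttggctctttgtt

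Signals are background-subtracted spot intensities, scaled so that the 75th percentile of every array is 418.8 signal units. Signals under 1 were raised to 1 before log2 was taken. Levels are compared between arrays for 1 probe and not between probes, except where signals of marker genes are summed. Such a sum depends on how bright each probe is. Differences are log2 of the treated over the control array of the same slide. Where 1 of the 2 arrays was not well above background, a bound is given as "at least", set against the higher of the dim probe's own signal and the lowest signal well above background on that array. A fold is left out where both arrays were below background or where the bound would run against the values.

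Without a ligand, the slides differed most in PTH1R, STC2, CYP27B1 and KL. PTH1R, the receptor for parathyroid hormone, had a control signal of 10320 on HK2 1 and 10370 on RPTEC 2, against 16.48, not well above background, on HK2 2 and 17.08 on RPTEC 1. STC2 ran the other way, with 340.1 on HK2 2 and 317.7 on RPTEC 1, and 1 and 3.746, both not well above background, on HK2 1 and RPTEC 2. KL had 134.1 and 185.2 on HK2 2 and RPTEC 1 and was not well above background on HK2 1 and RPTEC 2, at 5.436 and 7.091. CYP27B1 was likewise measured at 48.76 on HK2 2 and 63.77 on RPTEC 1 and lay at the floor of 1 on the other slides. In each of these 4 genes the slides with the higher level carried different line labels, so that the arrays of one label held both extremes.

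The other genes were closer between slides. CYP2R1 control signals were 678.7, 650.9, 648.3 and 810.1 on HK2 1, HK2 2, RPTEC 1 and RPTEC 2, a range of 0.32 on the log2 scale. VDR had 193.6, 126.4, 104.2 and 218.2, a log2 range of 1.07. FGFR1, read by its brightest probe, had 2673, 5094, 4368 and 1827, a log2 range of 1.48, and was higher on the slides where PTH1R was low. CYP24A1 and STC1 were not well above background on any control array. The control arrays of the 2 labels were not told apart for any of the 6 genes tested, with an adjusted p of 1 in limma for each, and 0% of the 15717 genes were called in that comparison. Each label joined slides of unlike profile, so the spread within a label was wide and the comparison had little power.

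**Figure D1:**
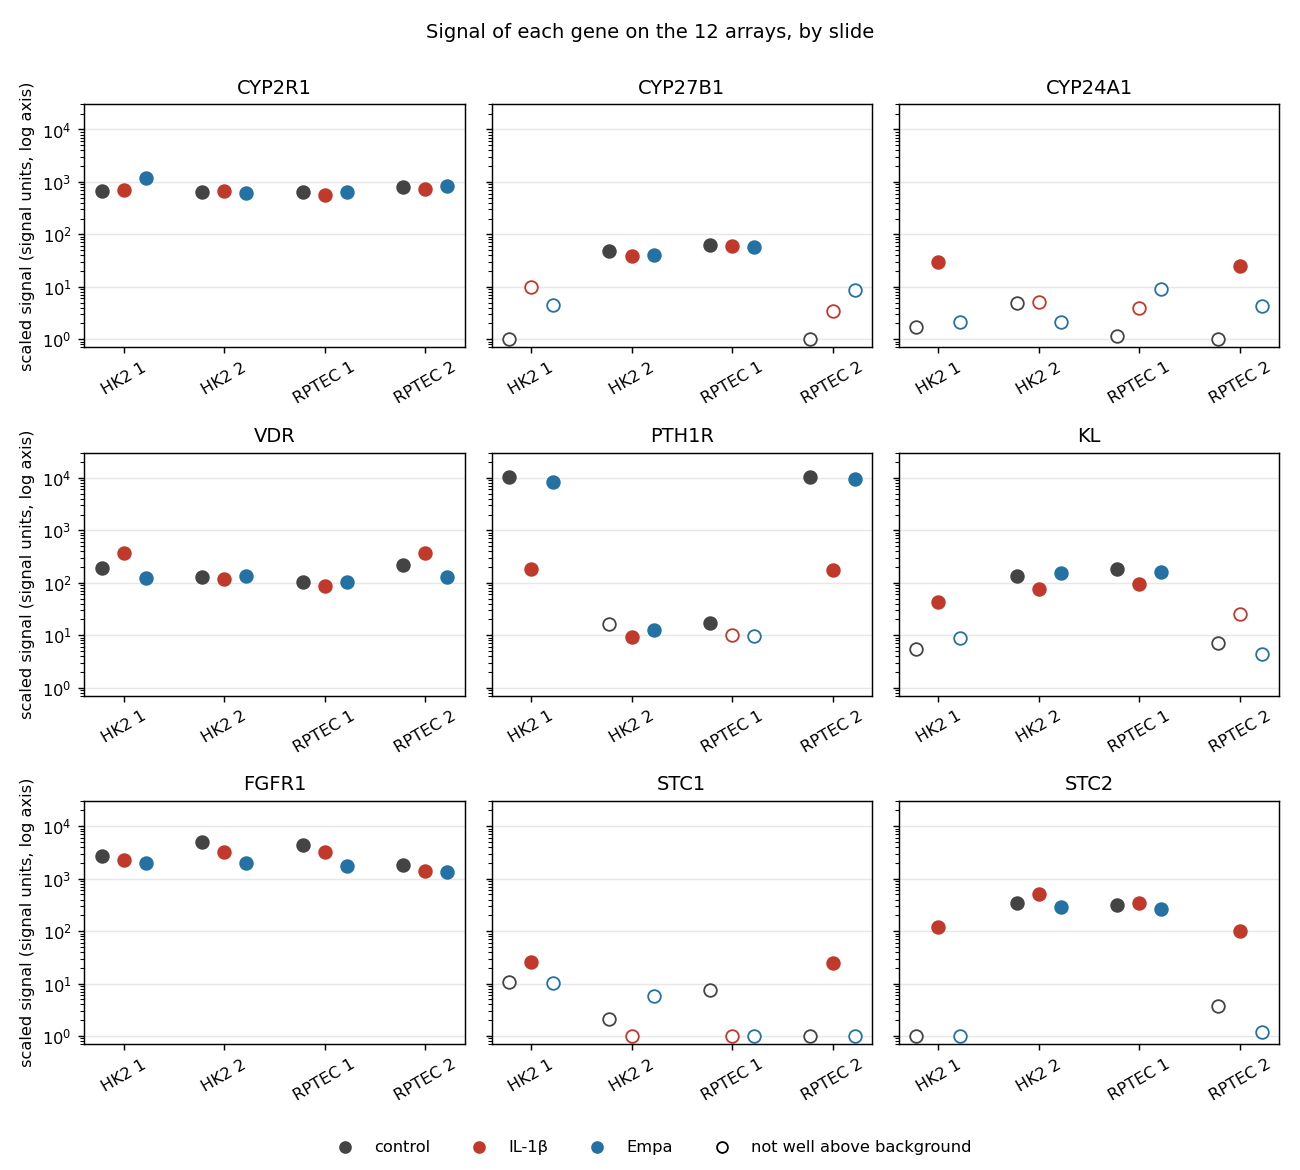
Scaled signal (signal units, log axis) of the 9 genes on the 12 arrays, by slide, with control, IL-1β and Empa side by side, open circles where the array was not well above background, and 1 point per array for the brightest probe of a gene. PTH1R was at 10320 and 10370 on the control arrays of HK2 1 and RPTEC 2 and below 18 on the other two, while STC2, KL and CYP27B1 were high where PTH1R was low.

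With IL-1β, CYP2R1 stayed near its control. Its IL-1β signals were 704.2, 666.8, 575 and 743.5 in the slide order above, differences of 0.05, 0.03, -0.17 and -0.12 and a mean of -0.05 ± 0.11 (SD, n = 4 slides). CYP27B1 was measurable on HK2 2 and RPTEC 1 alone, where its IL-1β signals of 39.14 and 59.96 stood against 48.76 and 63.77, differences of -0.32 and -0.09. On HK2 1 and RPTEC 2 neither array was above background, and CYP27B1 signals of 9.858 and 3.421 on the IL-1β arrays have no fold.

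CYP24A1, the enzyme that degrades vitamin D, was above background on 2 of the 12 arrays, the IL-1β arrays of HK2 1 and RPTEC 2. Its signals there were 29.63 and 25.12, at least 4.01-fold and at least 2.98-fold higher than the control arrays at 1.691 and 1. On HK2 2 and RPTEC 1 the IL-1β signals of 5.154 and 3.943 were not well above background. The second probe, whose sequence is given above, was above background on 1 array, the IL-1β array of HK2 1, with 15.82, at least 2.14-fold higher than control. On RPTEC 2 that probe had 5.504, not well above background, so the 2 probes differ in the call there.

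VDR was higher with IL-1β on the slides with CYP24A1 signal and near control on the other two. Its IL-1β signals were 377.1, 117.5, 85.23 and 371.5, differences of 0.96, -0.11, -0.29 and 0.77. This is 1.95-fold higher on HK2 1 and 1.70-fold higher on RPTEC 2. The mean over the slides was 0.33 ± 0.62 (SD, n = 4), smaller than its spread.

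PTH1R had the lowest IL-1β difference of all genes measured on each slide that expressed it at a high level. Its signal was 180.5 on HK2 1 and 178.4 on RPTEC 2, 57.2-fold and 58.1-fold lower than control. These differences of -5.84 and -5.86 ranked 1 from the bottom of 14352 and 13422 genes above background on both arrays. On RPTEC 1 the IL-1β signal of 9.923 was not well above background, at least 1.72-fold lower than 17.08. On HK2 2, 9.302 was above background but the control at 16.48 was not, so no fold is given. By signal alone, PTH1R was below control on all 4 slides. The mean of -3.33 ± 2.91 (SD, n = 4) joins a pair of slides with a large difference and a pair close to background. On that second pair, HK2 2 and RPTEC 1, the differences were -0.02 and -0.07 after another background correction. In the authors' log2 values they were -0.03 and -0.08. SLC12A1, the thick limb marker, moved with it, from 8482 to 297.9 on HK2 1 and from 13330 to 292.4 on RPTEC 2. The summed signal of the 6 thick limb and distal markers was 140.5 to 13440 on control, 117.5 to 406.4 on IL-1β and 110 to 12560 on Empa arrays, and on the high arrays it was mostly SLC12A1. The other 5 markers summed to 156.3 on control and 108.5 on IL-1β on HK2 1, and to 107.1 and 100.7 on RPTEC 2. ANPEP, a brush border peptidase and proximal tubule marker, went the opposite way, from 177.1 to 847.9 on HK2 1 and from 161.4 to 752.5 on RPTEC 2. The part of these markers in the PTH1R result was not tested. In bulk RNA, fewer cells of a type and less RNA per cell cannot be told apart.

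KL, the co-receptor of FGF23, was lower with IL-1β where it was measurable and appeared on 1 further array. Its signal was 76.21 on HK2 2 and 95.82 on RPTEC 1, 1.76-fold and 1.93-fold lower than control. The RPTEC 1 difference of -0.95 ranked 579 from the bottom of 14588 genes, and the HK2 2 difference ranked 2045 of 14563. On HK2 1 the IL-1β array reached 42.95, at least 5.81-fold higher than a control below background, and on RPTEC 2 neither array was above background, at 7.091 and 25.58. The KL difference thus had opposite signs on the slides labelled HK2, while of those labelled RPTEC only RPTEC 1 gave a fold.

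FGFR1, a receptor for FGF23 and other fibroblast growth factors, was below control on all 4 slides with IL-1β. Its signals were 2225, 3286, 3231 and 1408, differences of -0.26, -0.63, -0.43 and -0.38. The mean was -0.43 ± 0.15 (SD, n = 4), beyond 1 SD of the slides, and of the fits below only the one on the authors' log2 values called it. The median of all genes was itself at -0.17, -0.18, -0.06 and -0.01 on these slides, so the FGFR1 difference on HK2 1 was near that of the whole array. The second FGFR1 probe had 100.6, 219.5, 154.3 and 137.7 with IL-1β against 203.5, 414.7, 168.1 and 178.9, differences of -1.02, -0.92, -0.12 and -0.38. The dimmest FGFR1 probe was above background on 1 array, the control of RPTEC 1, at 25.72.

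The stanniocalcin genes had IL-1β signal on HK2 1 and RPTEC 2, where their controls had none. STC2 reached 119.8 and 101 there, at least 16.2-fold and at least 12-fold higher than control. On HK2 2 and RPTEC 1, where STC2 had a high control level, it was 513.9 and 341.8, differences of 0.60 and 0.11. STC2 was thus above control on all 4 slides, with IL-1β arrays that spanned a narrower range of levels than the controls. STC1 was above background on 2 of 12 arrays, the IL-1β arrays of HK2 1 and RPTEC 2, with 26.27 and 24.3, at least 2.48-fold and at least 2.89-fold higher than control.

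**Figure D2:**
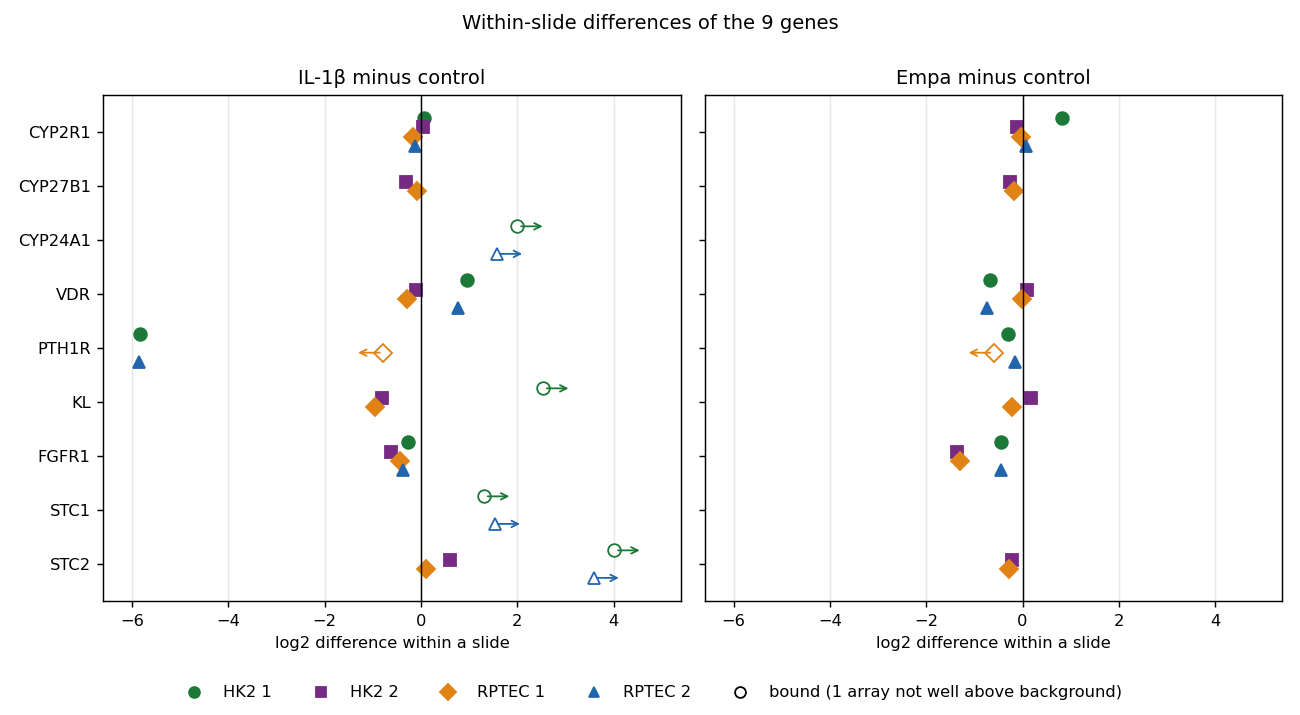
Log2 differences within a slide for the 9 genes, IL-1β minus control on the left and Empa minus control on the right. Each color and shape is a slide. Filled points were measured on both arrays, open points with an arrow are bounds, and slides without a fold are left out. PTH1R lay at -5.84 and -5.86 with IL-1β on HK2 1 and RPTEC 2, and FGFR1 was left of 0 on all 4 slides with both treatments.

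With Empa, FGFR1 had the largest mean difference of the axis genes measured on all 4 slides, though no fit called it. Its Empa signals were 1971, 1988, 1763 and 1340, differences of -0.44, -1.36, -1.31 and -0.45. FGFR1 was 2.56-fold lower on HK2 2 and 2.48-fold lower on RPTEC 1, ranks of 59 of 14646 and 138 of 14354 genes from the bottom. On HK2 1 and RPTEC 2 it ranked 3420 of 14184 and 1383 of 13692. The mean was -0.89 ± 0.51 (SD, n = 4), and the 4 Empa arrays ranged from 1340 to 1988 against 1827 to 5094 on the controls, overlapping between slides though never within one. The second FGFR1 probe had 99.48, 163.7, 99.33 and 113.5, differences of -1.03, -1.34, -0.76 and -0.66, so both probes that were above background on all 12 arrays lay below control on all 4 slides. The same sign on all 4 slides was seen for both probes with either treatment after quantile normalization, after another background correction and in the authors' own log2 values.

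**Figure D3:**
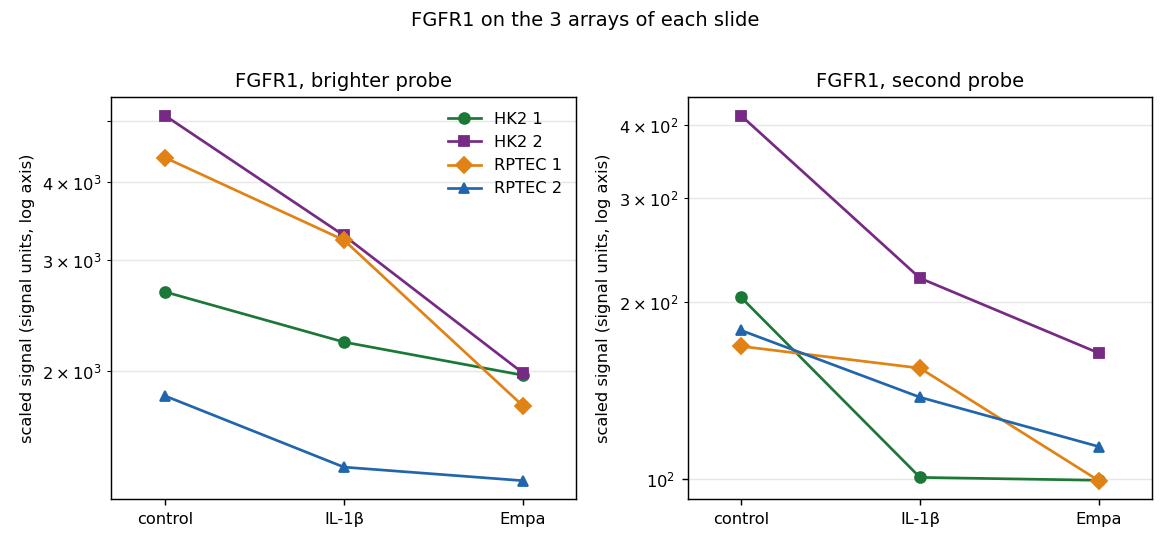
Scaled signal (signal units, log axis) of the 2 FGFR1 probes above background on all 12 arrays, for control, IL-1β and Empa, with 1 point per array and lines that join the 3 arrays of a slide. Every IL-1β and Empa point lies below the control of its slide, and Empa was lowest on all 4 slides for both probes.

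Of the other genes, VDR was lower with Empa on HK2 1 and RPTEC 2, and CYP2R1 was higher on HK2 1. The rest were near control or measurable on few slides. VDR had 121.6, 134.8, 103.4 and 130.7, differences of -0.67, 0.09, -0.01 and -0.74, and the value on RPTEC 2 ranked 382 of 13692 genes from the bottom. The value on HK2 1 ranked 2543 of 14184. CYP2R1 had 1202, 603.4, 631.8 and 845.8, differences of 0.83, -0.11, -0.04 and 0.06, so its mean of 0.19 ± 0.43 (SD, n = 4) rested on HK2 1. The mean of VDR was -0.33 ± 0.43 (SD, n = 4), so the means of VDR and CYP2R1 were both within their spread. For VDR that spread joins 2 lower slides, HK2 1 and RPTEC 2, with 2 slides near control. PTH1R kept a signal of 8406 on HK2 1 and 9312 on RPTEC 2, differences of -0.30 and -0.15. On RPTEC 1 it was at 9.487, not well above background and at least 1.51-fold lower, and on HK2 2 at 12.76, with a control below background. PTH1R was below control on all 4 slides, but after another background correction and in the authors' log2 values its HK2 2 difference was 0.03 and 0.10. SLC12A1 was at 11460 and 12470 on the Empa arrays of HK2 1 and RPTEC 2.

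KL had 150.8 and 159.6 with Empa on HK2 2 and RPTEC 1, differences of 0.17 and -0.21. STC2 had 292.4 and 261.4 there, differences of -0.22 and -0.28, and CYP27B1 had 40.82 and 56.78, differences of -0.26 and -0.17. All 3 genes were not well above background on the Empa arrays of HK2 1 and RPTEC 2. CYP24A1 and STC1 were not well above background on any Empa array.

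None of the 6 genes tested passed an adjusted p of 0.05 in limma, in either line, in the mean of both lines or between the lines. Without a block, the mean of both lines called 0.0509% of all genes with IL-1β and 0% with Empa, and each single line and the difference between the lines called 0% with either treatment. The lowest adjusted p of the 6 genes in limma was 0.974 with IL-1β and 1 with Empa. At an unadjusted p of 0.05, 0 of the 6 passed with either treatment, where 7.65% and 1.3% of all genes did. With the replicate number as a block, which here is the slide, limma called 5.5% of all genes in the mean of both lines with IL-1β, 0.255% in HK2 and 0.261% in RPTEC, and 0% with Empa and for the difference between the lines. PTH1R had the lowest adjusted p of the members in that limma fit, 0.135 with IL-1β. Unadjusted, PTH1R and STC2 with IL-1β and FGFR1 with Empa passed 0.05, beside 23.3% and 9.19% of all genes.

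Another fit kept the slide as a block and gave each treatment 1 effect over the 4 slides, which does not use the line labels. It called 12.4% of all genes with IL-1β, 4.52% higher and 7.91% lower, and 0.00636% with Empa. None of the 6 members was among them. PTH1R came closest in limma with IL-1β, at -3.33 (SE 1.01) and an adjusted p of 0.0614, followed by STC2 at 3.09 (SE 1.14, adjusted p = 0.111 in limma). FGFR1 with Empa was at -0.89 (SE 0.20) with an adjusted p of 0.231 in limma. Without the slide RPTEC 1 that limma fit called PTH1R, at -4.17 with an adjusted p of 0.0486. It also called STC2 with IL-1β after another background correction (0.82, adjusted p = 0.0447 in limma) and FGFR1 with IL-1β in the authors' log2 values (-0.53, adjusted p = 0.0431 in limma). In these settings 7.26%, 12.2% and 12.7% of all genes were called with IL-1β, and each held 1 of the 6 members. With all 4 slides kept, the pooled effects of PTH1R and STC2 with IL-1β and of FGFR1 with Empa passed an unadjusted p of 0.05 in limma. So did 28.2% of all genes with IL-1β and 12% with Empa. No slide was tested by itself. The limma p-values of PTH1R and STC2 rest in part on slides where the control or the IL-1β array lay at background. STC2 and KL passed the filter for the fit through IL-1β groups alone, so their IL-1β results are not independent of that filter.

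A wider filter, above background on at least 2 of the 12 arrays, brought all 9 genes into a fit of 17843. With slide as a block and 1 effect per treatment, 9.98% of those genes were called with IL-1β and 0.0056% with Empa, and none of the 9. CYP24A1 had an adjusted p of 0.089 in limma with IL-1β, CYP27B1 of 0.281 and STC1 of 0.824. Signs alone were counted too, with signals at background included. PTH1R and FGFR1 were below control on all 4 slides with IL-1β, 2 of the 6 genes, where 24.8% of all genes were. STC2, which entered the fit through IL-1β groups alone, was above on all 4, 1 of 6, beside 15% of all genes. With Empa, PTH1R and FGFR1 were again below on all 4, beside 13.9%, and none of the 6 was above, beside 12.5%. The IL-1β and Empa differences share their control arrays.

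Genes around the 9 were taken from 4 lists, on vitamin D handling, VDR targets, FGF23 and phosphate transport, and parathyroid hormone and calcium sensing. Without a block none of their genes was called in limma with either treatment, and calls below come from the limma fits with the slide as a block. In the list on FGF23, klotho and phosphate transport, 14 of 22 genes were tested and 6 were lower and 0 higher with IL-1β in the fit with 1 effect per treatment, where 5 were called with an effect per line. Over all genes 7.91% were called lower and 4.52% higher. The median difference of the 14 genes was -0.56, beside -0.11 over all genes. PDZK1, a scaffold protein that binds phosphate transporters at the brush border, fell from 5750 to 228 on HK2 1, from 3068 to 725.8 on HK2 2, from 3280 to 479.6 on RPTEC 1 and from 5864 to 300.8 on RPTEC 2. Its log2 change was -3.45 (SE 0.46, adjusted p = 0.00253 in limma). PDZK1 thus fell on every slide, also where PTH1R was near background.

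The other 3 FGF receptors were called lower with IL-1β in that fit, and the difference from FGFR1 was not tested. FGFR2 fell by 3.08, 2.04, 1.82 and 3.35 on the log2 scale, and FGFR3 fell by 3.61, 1.61, 1.51 and 3.11, with adjusted p of 0.00143 and 0.00295 in limma. Both had their larger changes on HK2 1 and RPTEC 2. FGFR4 fell by 0.86, 0.88, 0.18 and 0.63 (adjusted p = 0.0348 in limma), and it was not called with an effect per line (adjusted p = 0.0814). FGFR4 was also not called after quantile normalization (adjusted p = 0.0834 in limma), after another background correction (0.143), in the authors' log2 values (0.255) or with any of the 4 slides left out (0.0556 to 0.176). With Empa, FGFR2 was above control on 3 slides at 0.93, 0.75 and 0.44 and at -0.22 on RPTEC 2, and none of the FGF receptors was called.

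The sodium phosphate cotransporter genes SLC34A1 and SLC34A2 were both called lower with IL-1β. SLC34A2 went from 390.9 to 125.9 on HK2 1 and from 289.6 to 95.75 on RPTEC 2. It was at least 13.8-fold lower on HK2 2 and at least 12.3-fold lower on RPTEC 1, where the IL-1β arrays were not above background (adjusted p = 0.00444 in limma). The log2 change of SLC34A2 in that fit was -2.74. It was -1.16 after another background correction and -1.14 in the authors' log2 values, called in both. SLC34A1, the main phosphate cotransporter of the proximal tubule, was close to background, with control signals of 24.48, 26.22, 20.17 and 23.5, not well above it on RPTEC 1 and RPTEC 2. SLC34A1 was at least 2.96-fold lower on HK2 1 and at least 2.58-fold lower on HK2 2, the only slides that gave a fold (adjusted p = 0.00579 in limma). It was above background on 4 of the 12 arrays. Both HK2 control arrays met the filter and neither HK2 IL-1β array did, so its call is not independent of the filter. SLC34A1 was not called after another background correction (-0.19, adjusted p = 0.155 in limma), in the authors' log2 values (-0.18, adjusted p = 0.148) or without the slide RPTEC 2 (adjusted p = 0.0685). With Empa, SLC34A2 was at -1.49, -1.63, -1.78 and -0.50, below control on all 4 slides, with an adjusted p of 0.313 in limma. FAM20C, a secretory pathway kinase that phosphorylates FGF23, was at 0.02, -0.78, -0.50 and -0.25 with Empa (adjusted p = 0.497 in limma) and at 0.25, -0.90, -0.72 and 0.22 with IL-1β (adjusted p = 0.432 in limma).

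In the list on vitamin D handling, 18 of 22 genes were tested and 2 were higher and 1 lower with IL-1β, 3 calls in both blocked fits. Without the slide RPTEC 2, LRP2 alone was called. The median was -0.15, beside -0.11 over all genes. LRP2, or megalin, the endocytic receptor that takes up vitamin D with its binding protein, fell from 166 to 32.18, from 667.8 to 102.9, from 304.5 to 48.97 and from 158 to 38.39. Its change was -2.44 (SE 0.16, adjusted p = 0.000115 in limma). The change of LRP2 was smaller, though still called, after another background correction (-1.44) and in the authors' log2 values (-1.36). CUBN, its partner, was above background on no control array. CYP3A5, a drug-metabolizing enzyme of the CYP3A family, rose from below background to 3679 on HK2 1 and 2937 on RPTEC 2, at least 498-fold and at least 349-fold, but to 28.59 on HK2 2 and 20.97 on RPTEC 1, at least 3.5-fold and at least 3.53-fold (adjusted p = 0.00931 in limma). CYP3A5 was above background on 4 arrays, the IL-1β arrays. It thus passed the filter for the fit through IL-1β groups alone, and its call is not independent of that filter. CYP3A5 was not called after another background correction (adjusted p = 0.0785 in limma), in the authors' log2 values (0.0675) or without the slide RPTEC 2 (0.0791). DHCR7, which turns the vitamin D precursor into cholesterol, rose by 1.46, 0.76, 1.08 and 1.42 (adjusted p = 0.0213 in limma), but it was not called without HK2 2, RPTEC 1 or RPTEC 2 (adjusted p between 0.0628 and 0.0791).

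CYP27A1, another vitamin D 25-hydroxylase, had controls of 8951 and 7766 on HK2 1 and RPTEC 2 and of 57.36 and 89.49 on the other two. Its IL-1β differences were -0.43, -0.33, -0.88 and -0.46, with an adjusted p of 0.093 in limma. RXRB, a VDR partner, was at -0.26, -0.71, -0.36 and -0.44 with IL-1β (adjusted p = 0.192 in limma). NCOR1, a corepressor of nuclear receptors, was at -1.75 with Empa on HK2 1 and between -0.22 and 0.09 on the other slides.

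In the list of reported VDR targets, 12 of 20 genes were tested. In the fit with 1 effect per treatment 3 of them were called higher with IL-1β and 2 lower, while 4 were called with an effect per line. With a slide left out, 3 were called without HK2 1 or HK2 2 and 2, G0S2 and KLK6, without RPTEC 2. The median was 0.01, or -0.01 with dim genes at their bounds, beside -0.11 over all genes. G0S2, an inhibitor of lipolysis, rose by 3.59, 1.37, 1.59 and 2.99 (adjusted p = 0.00299 in limma). SPP1, or osteopontin, rose by 1.38, 0.88, 0.47 and 1.78 (adjusted p = 0.0118 in limma), with the IL-1β array of HK2 1 saturated. It was not called without HK2 1 (adjusted p = 0.0636 in limma) or RPTEC 2 (0.0982). ATP2B1, a plasma membrane calcium pump, rose by 1.24, 0.86, 0.86 and 0.58 (adjusted p = 0.0111 in limma), but it was not called without HK2 2, RPTEC 1 or RPTEC 2 (adjusted p between 0.0555 and 0.06).

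The 2 targets called lower were KLK6, a serine protease, and LRP5, a Wnt co-receptor. KLK6 fell from 41.74 to 12.61 on HK2 2 and was at least 7.69-fold, at least 3.12-fold and at least 6.52-fold lower on HK2 1, RPTEC 1 and RPTEC 2 (adjusted p = 0.00437 in limma). The log2 change of KLK6 in that fit was -2.25. It was -0.68 after another background correction and -0.52 in the authors' log2 values, called in both. LRP5 fell by 0.84, 0.89, 0.23 and 0.83 (adjusted p = 0.0255 in limma), and it was not called with an effect per line (adjusted p = 0.0759), in the authors' log2 values (0.0692) or without HK2 1, HK2 2 or RPTEC 2 (0.0804 to 0.174). IGFBP3, which binds insulin-like growth factors, was at 5.13 and 4.97 on HK2 1 and RPTEC 2 and at -1.16 and -1.51 on HK2 2 and RPTEC 1, with no call. The VDR targets thus moved in both directions.

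In the list on parathyroid hormone and calcium sensing, 14 of 18 genes were tested and none was called with IL-1β, with a median of -0.12. ADCY6, an adenylyl cyclase, was at -0.51, -0.86, -0.58 and -0.70 with IL-1β (adjusted p = 0.176 in limma, or 0.0357 without the slide HK2 1), and ARRB2, an arrestin, at -1.03, -0.50, -0.14 and -0.71 (adjusted p = 0.0715 in limma). PRKACA, a catalytic subunit of protein kinase A, was at -0.30, -1.03, -0.21 and -0.22. With Empa no gene of any of the 4 lists was called, and the medians were -0.25, -0.10, -0.14 and -0.24 for vitamin D handling, VDR targets, FGF23 and parathyroid hormone, beside -0.02 over all genes. RGS2, a regulator of G protein signaling, was above control on all 4 slides with Empa, at 0.87, 1.20, 0.84 and 0.67 (adjusted p = 0.14 in limma). GNA11, a G protein subunit, was at -2.65 on HK2 1 and between -0.13 and 0.28 on the others.

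**Figure D4:**
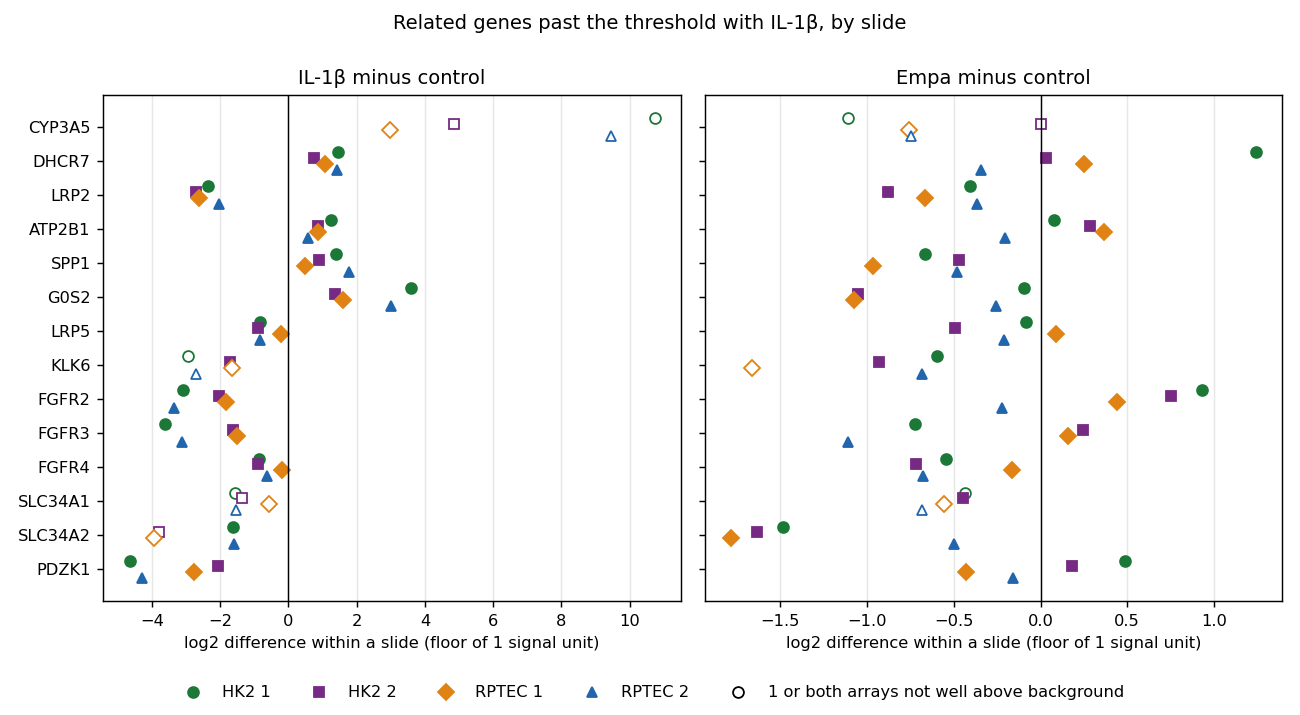
Log2 differences within a slide, with a floor of 1 signal unit, for the 14 list genes called with IL-1β in the fit with slide as a block and 1 effect per treatment, IL-1β minus control on the left and Empa minus control on the right, on axes of different range. Each color and shape is a slide, and open points have 1 or both arrays not well above background. LRP2, FGFR2, FGFR3 and PDZK1 lay below -1.5 on all 4 slides with IL-1β.

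Over the 12 arrays, 3 of the 9 genes were above background throughout and could be set against 12606 genes. The gene with the pattern most like VDR was WFDC2 (Pearson r of 0.978), followed by RAB9A (0.971) and LOC100996573 (0.963). CYP2R1 was most like SLC38A6 (0.968), ZNF322 (0.968) and TFIP11 (0.967). FGFR1 was most like MAB21L3 (0.881), LOC392196 (0.879) and LOC646014 (0.878). These arrays share slides and treatments, and the values describe likeness only.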

How the data were processed

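Cy3-labelled RNA of the 12 samples was hybridized to Human GE 4x44K v2 arrays. The authors deposited the output of Agilent Feature Extraction 9.5.3.1, with intensities that the software had background-subtracted and detrended, per the file headers, and that were not scaled to each other. A second deposited file holds the authors' log2 values, said to be quantile-normalized, and served as an alternative. Columns that belong to no sample numbered 0.

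Groups and replicate numbers came from the sample titles. Control and outlier spots were dropped, signals were scaled to each array's 75th percentile, given a floor of 1 signal unit, put on the log2 scale and averaged per probe. Each gene was represented by its brightest probe among those marked well above background in both replicates of 1 or more groups. A gene can pass through the groups where it is high, and its test is then not independent of this filter. In R 4.3.3, limma 3.58.1 was applied to the 12 arrays in 6 groups without a block after tests on simulated data, with Benjamini-Hochberg adjustment over all genes tested and a threshold of 0.05. Within a slide the deviations from group means correlated with r between 0.592 and 0.906 over 15324 probes. The arrays of a slide thus shared a difference from the other slide of their label. The slides of a label had unlike profiles, and whether the replicate numbers also pair the cultures was not tested. Blocked fits are therefore given where they change a call.

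The members and lists were chosen with earlier results of these data known, and their counts are no independent evidence. Named were the 9 members, in each list the 3 genes with the largest mean IL-1β and the 3 with the largest mean Empa difference among those above background on all 12 arrays, every list gene called, the 3 genes most like each member, and CXCL8, TNFAIP3 and ICAM1 as checks of the treatment. Other normalizations, background corrections, filters, floors and probe rules, outlier spots kept, a scan block, each scan alone and each array or slide left out were tried. The number of arrays limits the precision. Exon positions were not used here.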

Additional observations from a re-analysis of the deposited data

Results flagged for a closer look

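The IL-1β difference of CYP2R1 was above 0 on both slides labelled HK2 (0.05 and 0.03) and below 0 on both labelled RPTEC (-0.17 and -0.12). The difference between the labels was 0.19 (SE 0.58), with an adjusted p of 1 in limma, and with the replicate block the SE was 0.42 and the adjusted p again 1.

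The Empa difference of KL also had opposite signs on the slides of the 2 labels, with a difference between the labels of 0.89 (SE 3.36, adjusted p = 1 in limma; SE 1.46 and adjusted p = 1 with the replicate block). KL was above background on both arrays on HK2 2 and RPTEC 1 alone, at 0.17 and -0.21, so the value rests on signals at background on the other slides.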

How the results depend on the processing

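Of 34 settings for each mean of both lines, 3 called a member with IL-1β and 0 with Empa, where the lowest adjusted p in limma was 0.0687. No setting called a member in a single line or between the lines. The settings that combine a change with the replicate block, and those that leave out a slide, were chosen after seeing the data. With the replicate block and 1 effect per treatment, 1 member was called with IL-1β after normexp (STC2, 0.82, adjusted p = 0.0447), 1 in the authors' table (FGFR1, -0.53, adjusted p = 0.0431) and 1 without the slide RPTEC 1 (PTH1R, -4.17, adjusted p = 0.0486), beside 12.2%, 12.7% and 7.26% of all genes. STC2 had entered the fit through IL-1β groups alone, so its call is not independent of the filter. The counts of list genes called with IL-1β, 0 without a block, are given in the order FGF23, VDR targets and vitamin D handling. They were 5, 4 and 3 with the replicate block, 6, 5 and 3 with 1 effect per treatment, and in that fit 6, 6 and 3 with the filter on at least 2 arrays, 5, 5 and 3 with quantile normalization, 4, 5 and 2 with normexp, 4, 4 and 2 in the authors' table, 6, 5 and 3 with a floor of 5 and the same with outlier spots kept. They were 5, 3 and 3 without the slide HK2 1, 5, 3 and 2 without HK2 2, 5, 4 and 2 without RPTEC 1 and 4, 2 and 1 without RPTEC 2. The parathyroid hormone list had 1 call after normexp and in the authors' table (ARRB2) and 1 without the slide HK2 1 (ADCY6), each with 1 effect per treatment. Over all genes, 8 were called with IL-1β without a block, 865 with the replicate block, 1955 with 1 effect per treatment and between 445 (without RPTEC 2) and 1141 (without RPTEC 1) with a slide left out, and 0 with scan as a block. The sign of the mean turned for KL with IL-1β to -0.12 in the authors' table, with and without the block, for KL with Empa to 0.033 with a floor of 5 in either fit, 0.046 without the slide RPTEC 1, 0.21 without RPTEC 2 and 0.23 in scan 1 alone, and for CYP2R1 with Empa to -0.028 without the slide HK2 1 and -0.024 in scan 2 alone. With each array left out in turn, the mean ran from -0.41 to 1.94 for KL, -0.20 to 0.86 for VDR and -0.14 to 0.040 for CYP2R1 with IL-1β, and from -2.90 to 2.07 for PTH1R, -1.32 to 1.28 for KL, -2.65 to 1.56 for STC2 and -0.064 to 0.43 for CYP2R1 with Empa. An array left out of an unblocked fit changes the mix of slides behind a group. The cause of the other changes was not tested. Between 11.47% and 16.2% of the spots of an array had signals at or below 0, so log2 values of CYP24A1, CYP27B1, STC1, and of KL, STC2 and PTH1R where they were dim, depend on the floor.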
